A study of Homo sapiens with 3 samples.

Results

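The 8 genes described here are the human DNA topoisomerases TOP1, TOP1MT, TOP2A, TOP2B, TOP3A and TOP3B and the tyrosyl-DNA phosphodiesterases TDP1 and TDP2. They were chosen by name. All probe sets that the annotation of the array assigned to one of these genes alone were taken, which gave 17 of 54675 probe sets: 2 for TOP1, 2 for TOP1MT, 3 for TOP2A, 1 for TOP2B, 3 for TOP3A, 2 for TOP3B, 3 for TDP1 and 1 for TDP2. Each was measured in all 3 arrays, and 16 of the 17 passed the filter on low values.

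Topoisomerases relieve the twist that builds up in DNA during replication and transcription. They cut the DNA, hold the end through a tyrosine of the enzyme, and seal the cut again after strands have passed or turned. Type I enzymes cut 1 strand and type II enzymes cut both. When the cut is not sealed the enzyme stays bound to the DNA, and tyrosyl-DNA phosphodiesterases remove what is left of it, TDP1 from 3′ ends and TDP2 from 5′ ends. Mitoxantrone, doxorubicin and idarubicin, which are given in acute leukemia, hold topoisomerase II in this bound state, and camptothecin does so for topoisomerase I.

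SupB15 is an established BCR-ABL positive cell line of B-precursor acute lymphoblastic leukemia. The study asked how the bone marrow environment makes such cells resistant to drugs. SupB15-MR cells (2 arrays) are multidrug resistant cells derived from SupB15; per the study's methods they survived mitoxantrone in medium conditioned by HS-5 cells, a human bone marrow stromal line, and were then kept without drug. SupB15 cells (1 array) are the drug sensitive parental line. Both were grown in RPMI1640 medium with fetal bovine serum and no drug, so the arrays compare cell lines that differ in their history and not cells under treatment. The labels call the SupB15-MR arrays biological replicates, and the description of the second names MR5 cells. The paper's figure legends speak of SupB15-MR clones, named MR1 and MR2 in one legend and MR1 and MR5 in another. The arrays may thus stand for separate subclones of a single line. The single SupB15 array gives no spread for the parental line, and the labels do not say whether cultures were independent.

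Expression was given as log2 values after RMA (robust multi-array average), so that a difference of 1 is a factor of 2. The medians over all probe sets were 5.27 and 5.28 in the SupB15-MR arrays and 5.08 in the SupB15 array. Over 46034 kept probe sets, the SupB15-MR arrays correlated with each other at a Pearson r of 0.994, across probe sets, and with the SupB15 array at 0.777 and 0.776. Both SupB15-MR arrays held exactly the same value in 39.7% of kept probe sets, and 10% had the same value in all 3 arrays. The probe sets for the 3′ end of ACTB lay above those for its 5′ end by 2.59 and 2.43 in SupB15-MR and by 0.80 in SupB15, a measure of how far labelled RNA reached towards 5′ ends, whereas for GAPDH the same difference was -0.09 and -0.11 in SupB15-MR and 0.10 in SupB15. The 3 control probe sets for 18S ribosomal RNA were higher in SupB15-MR by 6.63, 6.96 and 7.82. The part of RNA quality and of ribosomal RNA in the differences below was not tested. Of 11 precursor B cell markers measured, 11 and 10 lay above the low-value threshold of 3.47 in the SupB15-MR arrays and 11 in the SupB15 array, and their medians were 10.27 and 10.27 in SupB15-MR and 10.34 in SupB15. Within the list, VPREB1 (-6.41), CD34 (-6.38), IGLL1 (-2.31), EBF1 (-1.50) and PAX5 (-0.79) were lower in SupB15-MR, RAG1 (2.03), MME (1.54), CD22 (0.58) and DNTT (0.20) were higher, and CD79A (-0.07) and CD79B (-0.08) were nearly level. Of 9 stromal markers, 6, 6 and 7 were above that threshold in SupB15-MR replicate 1, SupB15-MR replicate 2 and SupB15, with LUM at 3.41 and POSTN at 2.72 in every array, while THY1 (-3.22), DCN (-1.10) and CXCL12 (-1.05) were lower in SupB15-MR. Of the T cell markers 3, 3 and 5 of 5, of the myeloid markers 4, 4 and 3 of 4, and of the erythroid markers 2, 2 and 2 of 2 were above it in the same order of arrays. The part of these markers in the differences below was not tested.

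The 8 genes did not all move in the same direction. A probe set was called when limma gave an adjusted p of at most 0.05 and the difference was at least 2-fold. Of the 16 kept probe sets, 3 were called higher in SupB15-MR (1 of TOP1 and 2 of TOP3A), 1 was called lower (TOP3B) and 12 were not called. Among all kept probe sets 13.1% were called higher and 9.71% lower. Without a test, 3 were at least 2-fold higher in both SupB15-MR arrays (18.3% of all kept probe sets were) and 2 at least 2-fold lower in both (TOP3B and TDP2; 15% of all). Counted in either direction, 4 of the 16 were called (22.8% of all) and 5 were at least 2-fold apart in both arrays (33.2% of all). By the mean difference alone, 4 exceeded 2-fold upwards (19.6% of all) and 4 downwards (16.2% of all). The shares over the whole array are near those of the 16 probe sets, so that these counts are no result about the 8 genes as a group. Of any size, 11 of the 16 were lower in both SupB15-MR arrays (38.2% of all kept probe sets), 4 were higher in both (45.5%) and 1 lay on either side of SupB15. The median difference was -0.46 over the 16, against 0.0000 over all kept probe sets. With each gene on its brightest probe set on average, it was -0.97 over the 8 genes, against 0.0000 over all genes. No test of these medians was run. The medians of the arrays differed by 0.20 over the kept probe sets, SupB15-MR being higher. When each array was centred on its median, 3 of the 16 were called higher and 3 lower, against 3 and 1 as deposited.

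**Figure D1:**
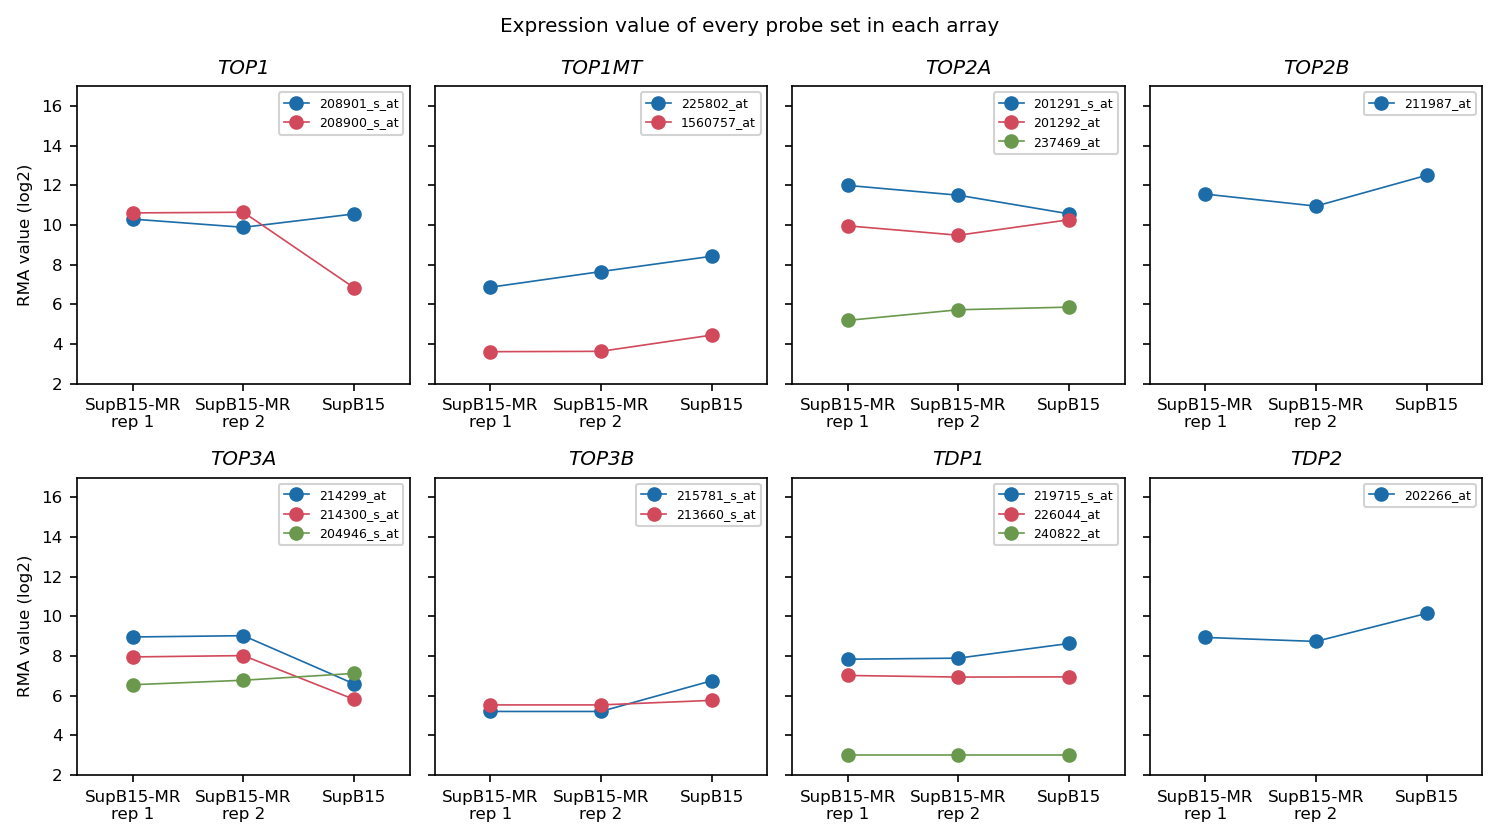
RMA value (log2) of every probe set of the 8 genes in SupB15-MR replicate 1, SupB15-MR replicate 2 and SupB15, 1 panel per gene and 1 point per array; lines join the points of a probe set and carry no order. The TOP1 probe set 208900_s_at stood at 10.60 and 10.63 in SupB15-MR and 6.83 in SupB15, while 208901_s_at of the same gene lay between 9.88 and 10.55 in all 3 arrays.

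TOP1 is the nuclear type IB topoisomerase that frees replication and transcription from supercoiling, and its gene lies at chr20:41028822-41124487 (GRCh38.p14). Its probe sets gave different answers. Probe set 208900_s_at had values of 10.60 and 10.63 in SupB15-MR, against 6.83 in SupB15. Both SupB15-MR arrays were thus far above the SupB15 array and close to each other, and the probe set rose by 3.79 (13.9-fold; standard error 0.0244, adjusted p = 0.00329 from limma). Probe set 208901_s_at, designed from the TOP1 mRNA, had values of 10.29 and 9.88 in SupB15-MR, against 10.55 in SupB15. It did not pass the test (-0.47, adjusted p = 0.411 from limma), and the distance between the SupB15-MR arrays, 0.41, was nearly as large as this difference. The 2 probe sets of TOP1 differed by 4.26 in their change, against a median of 0.82 over 4390 genes with 2 kept probe sets. The suffix _s_at means that the probes match several transcripts. Which transcripts each one reads was not analysed here, so no direction is given for TOP1 as a gene. The arrays also average over a culture, so that fewer cells with a transcript and less of it per cell cannot be told apart.

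TOP1MT is the topoisomerase I of mitochondria, encoded in the nucleus at chr8:143309324-143359977. Its probe set 225802_at had values of 6.85 and 7.64 in SupB15-MR, against 8.42 in SupB15. Both SupB15-MR arrays lay below SupB15, but they differed by 0.79 from each other, and the mean difference of -1.17 (standard error 0.598) did not pass the test (adjusted p = 0.320 from limma). Probe set 1560757_at, close to the low-value threshold, was at 3.60 and 3.62 in SupB15-MR and 4.44 in SupB15. Its difference of -0.83 had an adjusted p of 0.00990 from limma but was under 2-fold.

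TOP3A is a type IA topoisomerase that works with the BLM helicase to take apart crossed DNA strands after recombination, and also acts in mitochondria. It lies at chr17:18271428-18314994. Probe set 214299_at had values of 8.96 and 9.02 in SupB15-MR, against 6.59 in SupB15. It rose by 2.40 (5.27-fold, standard error 0.0489, adjusted p = 0.0120 from limma). Probe set 214300_s_at had 7.95 and 8.02 in SupB15-MR and 5.81 in SupB15, and rose by 2.17 (4.51-fold, standard error 0.0499, adjusted p = 0.0137 from limma). These probe sets were designed from the same sequence record, so that their accord is no second measurement of the gene. Probe set 204946_s_at, designed from the TOP3A mRNA, had 6.55 and 6.78 in SupB15-MR, against 7.12 in SupB15. Both SupB15-MR arrays were below SupB15 on this probe set, and it did not pass the test (-0.46, adjusted p = 0.234 from limma). No direction is given for the gene.

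TOP3B, the second type IA enzyme, can also act on RNA and works with the TDRD3 protein. It lies at chr22:21957025-21982787. Probe set 215781_s_at had the same value, 5.20, in both SupB15-MR arrays, against 6.75 in SupB15. It fell by 1.55 (2.92-fold; adjusted p = 0.000645 from limma). Probe set 213660_s_at was also the same in both SupB15-MR arrays, 5.53, against 5.76 in SupB15, which is a difference of -0.23 (adjusted p = 0.00131 from limma) and under 2-fold. Because identical values leave no measured spread, these adjusted p-values are set by limma's estimate over all probe sets and are no evidence of precision. The call for TOP3B therefore rests on the size of the difference from a single SupB15 array.

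TOP2A is the type II topoisomerase of dividing cells, which parts sister chromatids in mitosis and is a main target of mitoxantrone and the anthracyclines. It lies on the reverse strand at chr17:40388525-40417896, and its transcript level follows the cell cycle. The promoter, as RefSeq gives it for GRCh38.p14, is shown because TOP2A and TOP2B encode the targets of mitoxantrone, the drug that SupB15-MR cells had survived. The window covers chr17:40417847-40418146 on the reverse strand, 250 bases before to 50 bases after the start. Capitals mark ATTGG, which is the CCAAT box read from the opposite strand.
TOP2A promoter: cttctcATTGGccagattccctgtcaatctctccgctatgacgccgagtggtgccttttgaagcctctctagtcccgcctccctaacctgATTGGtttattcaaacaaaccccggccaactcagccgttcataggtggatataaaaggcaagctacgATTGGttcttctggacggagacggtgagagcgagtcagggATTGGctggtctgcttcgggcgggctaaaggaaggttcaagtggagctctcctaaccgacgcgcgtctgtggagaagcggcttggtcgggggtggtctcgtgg
The letters CCAAT were searched on both strands and occur 4 times in this window, each time as ATTGG. Of 35116 promoter windows of the same length, 34.6% hold at least 1 match and 0.991% at least 4. A match of letters shows neither a bound site nor a cause, and no binding was measured in these samples.

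Probe set 201291_s_at of TOP2A had values of 11.99 and 11.49 in SupB15-MR, against 10.55 in SupB15. Both SupB15-MR arrays lay above SupB15, 1 of them by less than 2-fold. The mean difference of 1.19 (2.28-fold, standard error 0.373) did not pass the test (adjusted p = 0.195 from limma). Probe set 201292_at pointed the other way, with 9.95 and 9.48 in SupB15-MR, against 10.26 in SupB15 (-0.54, adjusted p = 0.405 from limma). Probe set 237469_at had 5.18 and 5.72 in SupB15-MR and 5.85 in SupB15 (-0.40, adjusted p = 0.569 from limma). No probe set of TOP2A was called, and their changes spanned 1.73, close to the median of 1.59 over 2394 genes with 3 kept probe sets. On 201291_s_at and 201292_at, SupB15-MR replicate 1 was above replicate 2, and on 237469_at it was below.

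TOP2B is the other type II topoisomerase. It is made in dividing and resting cells, acts mainly in transcription, and is bound by the same drugs. It lies on the reverse strand at chr3:25597905-25664907. Its only probe set, 211987_at, had values of 11.55 and 10.94 in SupB15-MR, against 12.50 in SupB15. Both SupB15-MR arrays were below SupB15, with differences of -0.95 for replicate 1 and -1.55 for replicate 2. The mean difference of -1.25 (a 2.38-fold lower level, standard error 0.459) did not pass the test (adjusted p = 0.229 from limma), since the SupB15-MR arrays differed by 0.61. RefSeq has 2 promoter windows for TOP2B. The one at chr3:25664858-25665157, on the reverse strand, is shown for comparison with TOP2A, with ATTGG in capitals again.
TOP2B promoter: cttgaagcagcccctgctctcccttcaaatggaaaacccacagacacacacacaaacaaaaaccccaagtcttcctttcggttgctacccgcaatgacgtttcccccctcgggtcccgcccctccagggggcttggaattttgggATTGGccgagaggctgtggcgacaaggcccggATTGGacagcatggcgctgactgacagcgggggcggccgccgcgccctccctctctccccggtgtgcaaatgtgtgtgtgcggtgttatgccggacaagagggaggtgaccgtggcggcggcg
It holds CCAAT 2 times, as ATTGG (10.8% of all windows hold 2 or more), and the window at chr3:25664323-25664622 holds it 0 times. None of the promoter windows of TOP1, TOP3A, TOP3B, TDP1 and TDP2 had a match, while GGGCGG, searched on both strands, occurred at least once in every window examined and in 45% of all windows.

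**Figure D2:**
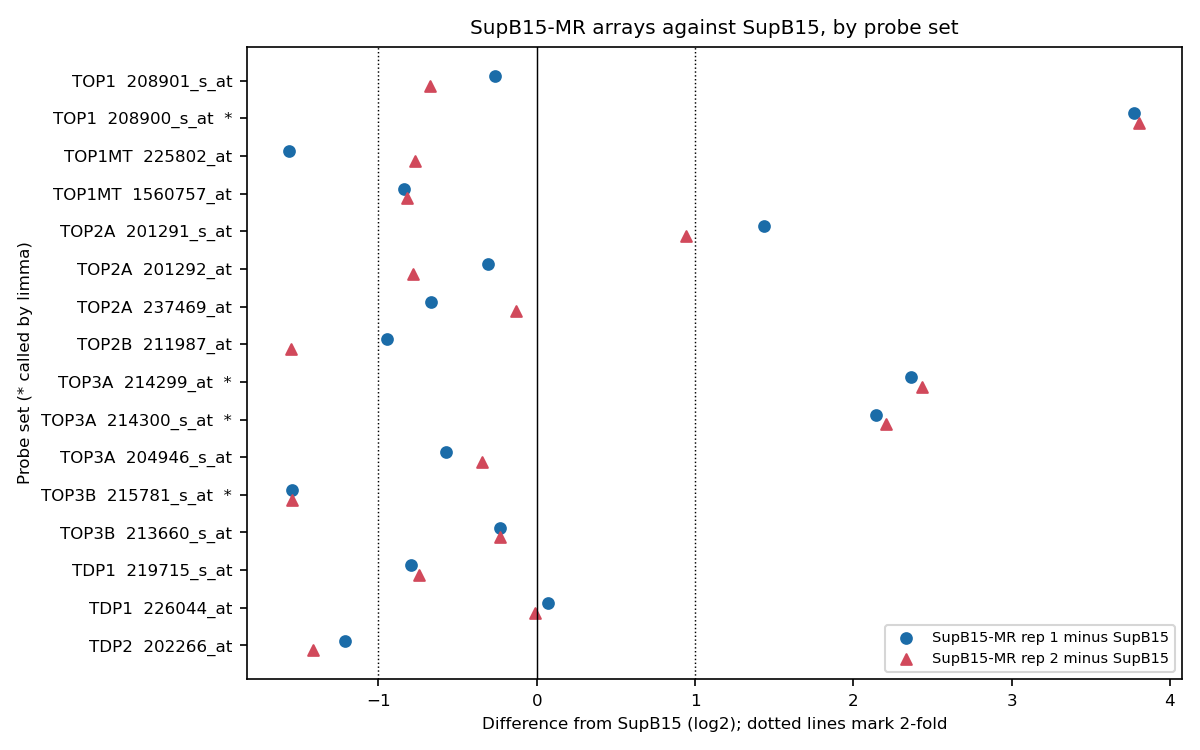
Difference from the SupB15 array (log2) of SupB15-MR replicate 1 and replicate 2 for each of the 16 kept probe sets, with 1 point per array; dotted lines mark 2-fold. The differences reached 3.78 and 3.81 for TOP1 208900_s_at at the upper end, and the lowest was -1.56 for TOP1MT 225802_at in replicate 1, whereas TOP3B 215781_s_at stood at -1.55 in both arrays.

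TDP1 removes topoisomerase I remnants and other blocks from 3′ ends, and its gene lies at chr14:89954968-90044764. Probe set 219715_s_at had values of 7.84 and 7.89 in SupB15-MR, against 8.63 in SupB15. Both SupB15-MR arrays were lower, with differences of -0.80 and -0.74, and the mean difference of -0.77 (1.70-fold, adjusted p = 0.0337 from limma) was under 2-fold. Probe set 226044_at was at 7.02 and 6.94 in SupB15-MR and 6.95 in SupB15, a difference of 0.03 (adjusted p = 0.760 from limma) that lies within the spread of the SupB15-MR arrays. Probe set 240822_at was at 3.01 in all 3 arrays, below the low-value threshold, and was left out of the test.

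TDP2, at chr6:24649979-24666899, removes topoisomerase II remnants from 5′ ends and thus acts on the lesion that mitoxantrone, doxorubicin and idarubicin leave. Its only probe set, 202266_at, had values of 8.94 and 8.73 in SupB15-MR, against 10.15 in SupB15. Both SupB15-MR arrays were more than 2-fold below SupB15, with differences of -1.21 and -1.41. The mean difference of -1.31 (2.49-fold, standard error 0.153) did not pass the test (adjusted p = 0.0709 from limma). After centring of each array on its median, TDP2 was called lower (-1.52, adjusted p = 0.0382), and over the alternatives with a test its adjusted p ranged from 1.90e-05 to 0.180.

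With a gene represented by its brightest probe set on average over the arrays, 1 of the 8 genes (TOP3A) was called higher and 1 (TOP3B) lower, against 11.8% and 9.05% of 17544 genes. That average includes the SupB15-MR arrays, so a probe set high only there can be chosen. With the probe set highest in SupB15 instead, TOP3A was at -0.46 and 0 of the 8 genes were called higher. The answer for a gene depended on the probe set. Of the 6 genes with several kept probe sets, TOP1 and TOP3A had one that was at least 2-fold higher in both SupB15-MR arrays and another that was lower in both; this held for 21.9% of 9016 genes with several kept probe sets. Probe sets of TOP1MT (spread of 0.34), TOP3B (1.32) and TDP1 (0.80) differed less than those of TOP1, and those of TOP3A differed by 2.86. The mean over a gene's probe sets was 1.66 for TOP1 and 1.37 for TOP3A, 0.08 for TOP2A, and -0.997, -0.89 and -0.37 for TOP1MT, TOP3B and TDP1.

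**Figure D3:**
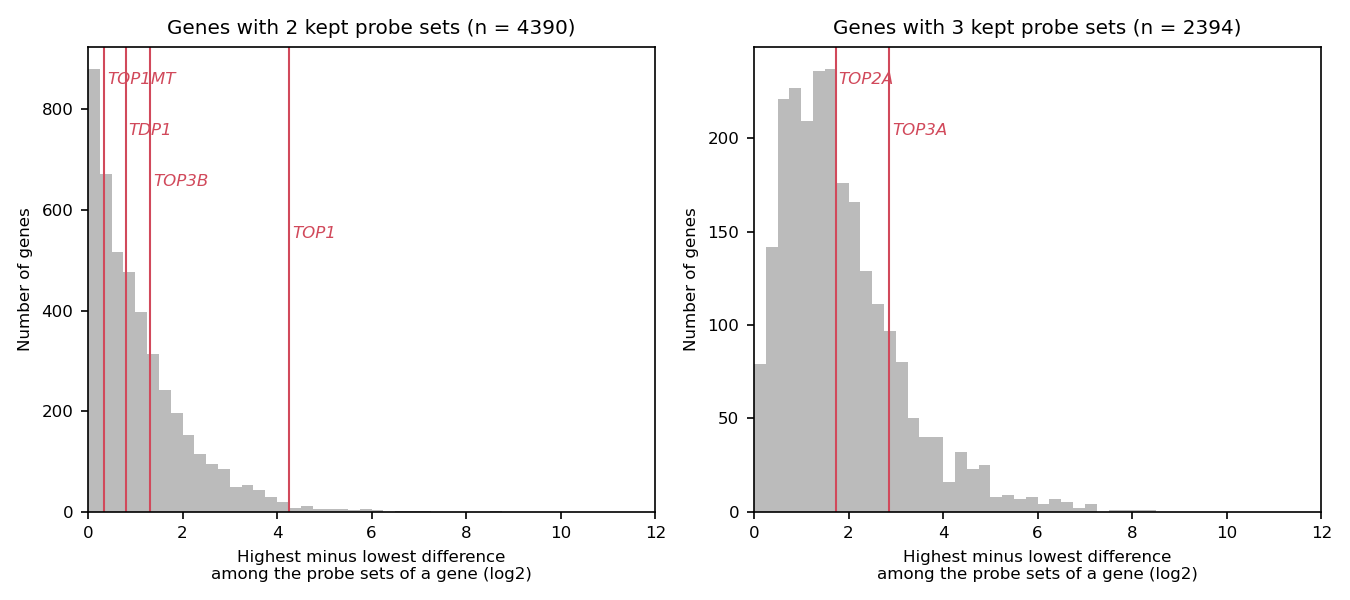
Number of genes by the distance between the highest and the lowest difference (SupB15-MR mean minus SupB15, log2) among their kept probe sets, for genes with 2 or 3 kept probe sets, with vertical lines at the genes named. TOP1 lay at 4.26, against a median of 0.82 for genes with 2, and TOP3A at 2.86, against a median of 1.59 for genes with 3.

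The SupB15-MR arrays also differed from each other. On 3 of the 16 probe sets the distance between them exceeded 0.50, the 95th percentile over all kept probe sets. TOP1MT 225802_at was higher in replicate 2 by 0.79, TOP2A 237469_at was higher in replicate 2 by 0.54, and TOP2B was lower in replicate 2 by 0.61. In all, 6 probe sets were higher in replicate 1, 8 were lower and 2 were identical. None of the called probe sets was among those 3. This follows largely from the test, whose spread is the distance between these arrays, and says nothing more about the calls.

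Genes whose products work with these enzymes were read in the same way, 1 probe set per gene. Over all genes, 11.8% were called higher and 9.05% lower, with a median of 0.0000, and the counts for these short lists are to be read against those shares. Among the partners of TOP3A and TOP3B, 1 of 5 was called higher and 0 lower, with a median of 0.24. The helicase BLM, which forms a complex with TOP3A, was at 9.08 in both SupB15-MR arrays and 7.84 in SupB15, and rose by 1.24 (adjusted p = 0.000888 from limma). As for TOP3B, so small an adjusted p comes from SupB15-MR values that are the same or nearly so. It is no evidence of precision, and this holds for SMC3, SMC4 and CCNB1 below as well. The complex subunits RMI1 (-0.36) and RMI2 (0.29) were not called. Nor were the TOP3B partners TDRD3 (0.24, its 3 probe sets between -0.47 and 0.24) and FMR1 (-0.59, its other probe set at -1.11).

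Of 8 genes for repair of topoisomerase I adducts and single-strand breaks, 0 were called higher and 1 lower (11.8% and 9.05% of all genes), with a median of -0.22. PARP1, which senses strand breaks and calls in TDP1, had 10.25 and 10.15 in SupB15-MR, against 11.78 in SupB15, and fell by 1.58 (adjusted p = 0.0293 from limma). The ligase LIG3 (1.27, adjusted p = 0.0957; 6 probe sets between -0.08 and 1.27) and TEX264 (-1.42, adjusted p = 0.111), which brings VCP and SPRTN to TOP1 adducts, were 2-fold apart in both arrays without being called. Of 11 genes for repair of topoisomerase II adducts and end joining, 1 was called higher and 0 lower (11.8% and 9.05% of all genes), with a median of 0.00. The nuclease MRE11 had 8.97 and 8.93 in SupB15-MR, against 7.77 in SupB15, and rose by 1.18 (adjusted p = 0.0134 from limma), although its 3 probe sets ranged between -0.23 and 1.75. Its partner NBN was at -1.35 (adjusted p = 0.0507; 5 probe sets between -1.35 and 2.14) and the end-joining factor XRCC4 at 1.45 (adjusted p = 0.0605; 4 probe sets between -0.23 and 1.84), neither of them called.

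Of 5 genes for proteins that bind topoisomerases or attach SUMO or ubiquitin, 1 was called higher and 1 lower (11.8% and 9.05% of all genes), with a median of -0.58. RNF4, a ubiquitin ligase that recognises SUMO chains, had 8.36 and 8.48 in SupB15-MR, against 10.10 in SupB15, and fell by 1.68 (adjusted p = 0.0350 from limma). CSNK2A1, a catalytic subunit of casein kinase 2, had 10.68 and 10.76 in SupB15-MR, against 8.08 in SupB15, and rose by 2.64 (adjusted p = 0.0132 from limma; its 4 probe sets ranged between -0.77 and 2.64). Of the meiotic topoisomerase-like genes, TOP6BL was the 1 tested. It was not called on its brightest probe set (-0.03), but its other probe set was at -2.84, so the gene cannot be read as level.

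TOP2A shares its work on mitotic chromosomes with condensin and cohesin. Of 14 such genes, CTCF included, 4 were called higher and 0 lower (11.8% and 9.05% of all genes), with a median of 0.40. SMC3, a cohesin subunit, was at 11.25 and 11.24 in SupB15-MR and 6.92 in SupB15 and rose by 4.32 (adjusted p = 0.000645 from limma), but its 4 probe sets ranged between -0.41 and 4.32. The condensin subunits SMC4 (1.64, its 3 probe sets between -0.02 and 1.64), NCAPG (1.57, its other probe set at 0.73) and NCAPD2 (1.05) were the other genes called. SMC4 had the same value, 11.18, in both SupB15-MR arrays. On their brightest probe sets the 10 genes not called lay on both sides of 0, from -0.83 (SMC1A) to 1.12 (RAD21). Other probe sets of both genes went the other way. The 4 of SMC1A ranged between -0.83 and 5.75, 3 of them at least 2-fold higher in both SupB15-MR arrays, and the other of RAD21 was at -1.64. Among the genes not called, the condensin subunits SMC2 (-0.55), NCAPD3 (-0.72), NCAPG2 (-0.35) and NCAPH (-0.23) were lower. NCAPH2 (0.74, its 5 probe sets between -0.69 and 0.96) was higher on its brightest probe set.

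Since TOP2A is a cell cycle gene, 14 genes of G2 and mitosis were set beside it. Of these 3 were called higher and 1 lower (11.8% and 9.05% of all genes), with a median of 0.22. The proliferation marker MKI67 had 10.87 and 10.98 in SupB15-MR, against 9.24 in SupB15, and rose by 1.68 (adjusted p = 0.0290 from limma), with 4 probe sets between -1.06 and 1.68. Cyclin B1 (CCNB1) was at 10.44 in both SupB15-MR arrays and 8.75 in SupB15 (1.69), while its other probe set was at 0.24. The checkpoint kinase BUB1 rose by 1.25, with 5 probe sets between -2.08 and 5.45. Cyclin B2 (CCNB2) had 9.97 and 9.86 in SupB15-MR, against 11.09 in SupB15, and fell by 1.17 (adjusted p = 0.0444 from limma), but its 3 probe sets ranged between -1.17 and 1.21 with a mean of 0.32. The 10 genes not called lay on both sides of 0, from -0.80 (PLK1) to 1.16 (CCNA2, its other probe set at -0.17). The share of dividing cells was not measured on these arrays. In its own assays the paper reports decreased proliferation of SupB15-MR cells and later engraftment in mice than for SupB15. Whether these transcripts follow how fast the cells divide was not tested.

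**Figure D4:**
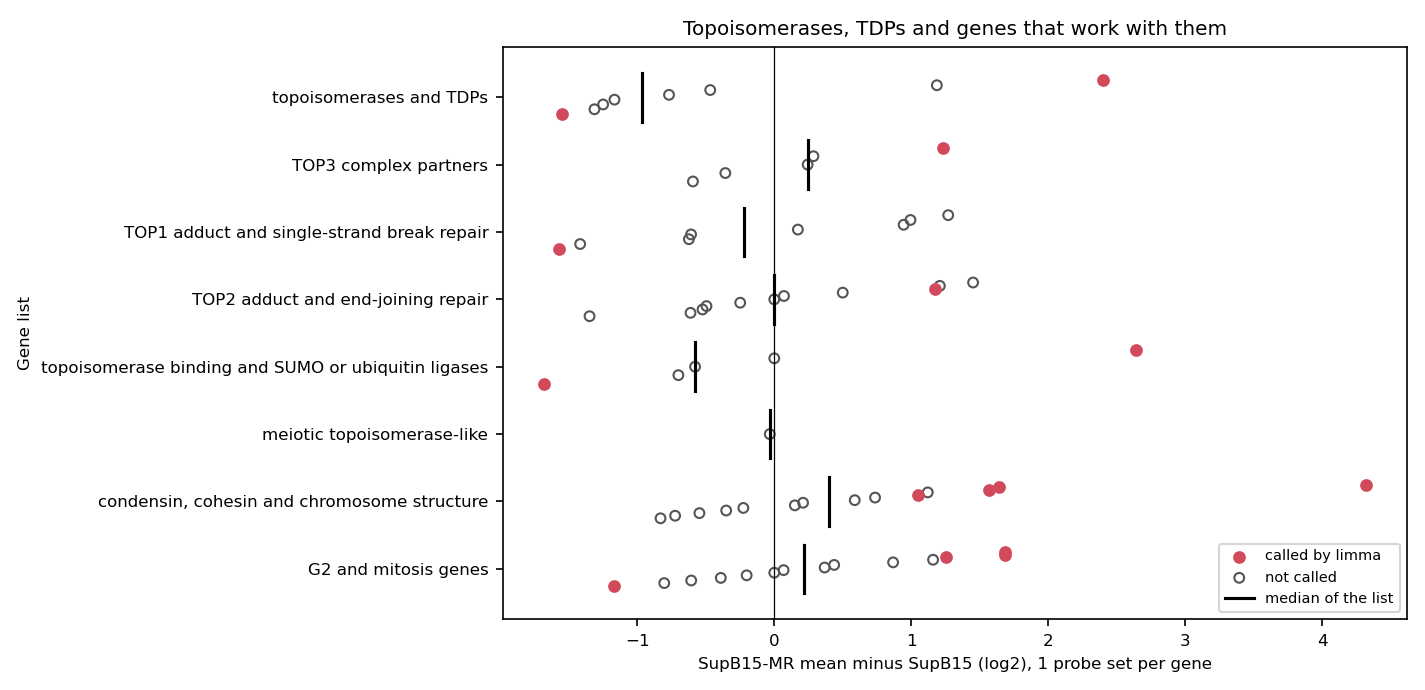
Difference of the SupB15-MR mean from SupB15 (log2) for the 8 genes and for each gene tested in 7 lists. The lists hold genes that work with topoisomerases and, set beside TOP2A, genes of G2 and mitosis. Each gene has 1 point, on its brightest probe set on average, with filled points for genes called. SMC3 at 4.32 lay farthest above 0. Of the 14 genes of condensin, cohesin and chromosome structure 4 were called, all higher, against 11.8% of all genes called higher. The 10 others of that list lay on both sides of 0.

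Among the 58 listed genes, the pair of differences from SupB15 in the SupB15-MR arrays was most like that of TOP2A (201291_s_at) for MRE11, at a distance of 0.33, followed by BLM (0.36) and BUB1 (0.39). For TOP2B the nearest were CCNB2 (0.37), NBN (0.55) and PARP1 (0.58), and for TOP1 (208901_s_at) FMR1 (0.19), NCAPG2 (0.26) and BRCA1 (0.28). The distance is Euclidean over 2 differences on the log2 scale that share the SupB15 array, and it orders genes without testing them.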

How the data were processed

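Total RNA of SupB15-MR cells (2 samples) and SupB15 cells (1 sample) was labelled with the NuGEN Ovation system and hybridised to Affymetrix HG-U133 Plus 2.0 arrays. Per the labels and the methods, the authors normalised and summarised the probe intensities by RMA, and the deposited table is on the log2 scale, with 1 value per probe set. The version and the set of arrays normalised together are not given in the sources used here. Precision is limited by the number of arrays.

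Gene names came from the platform annotation, in which 41097 probe sets have 1 gene, 1801 several and 11777 none. Gene positions and promoter windows came from RefSeq (GRCh38.p14); promoters matched 7 of the 8 genes, and the positions of probe sets within genes were not analysed here. A probe set was kept if at least 1 of its 3 values exceeded the 20th percentile of all values (3.47), which left 46034. Both SupB15-MR arrays were compared with the SupB15 array with limma 3.58.1 in R 4.3.3 (lmFit, eBayes, 1 residual degree of freedom, Benjamini-Hochberg over all kept probe sets), and the thresholds for a call were 0.05 for the adjusted p and 2-fold. The spread comes from the SupB15-MR arrays alone, and the identical values among them lower limma's prior standard deviation to 0.001024 on 0.3129 degrees of freedom. An exact permutation test of 1 array against 2 has 3 splits and cannot pass the threshold. The p-values set each difference against the spread between the SupB15-MR arrays, moderated by limma's prior. That spread may be technical or a difference between clones, and it holds nothing of the spread of the SupB15 line.

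Every probe set of the 8 genes is given. From each of 7 lists the called genes with the largest rise and fall were named, up to 4 per list, and for likeness the 3 nearest listed genes; genes without a call were named after their values were seen. The members and lists were chosen with earlier results of these data known. Alternatives were centring of the arrays, no filter, a variance prior from probe sets that differ, one-way ANOVA, robust and intensity-trend moderation, leaving out each SupB15-MR array, and other ways to represent a gene. Some genes of the lists are not reported here.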

Additional observations from a re-analysis of the deposited data

How the results depend on the processing

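With 1 SupB15 array, no alternative gives the spread of the parental line. One-way ANOVA could test 14 of the 16 probe sets and called 0 higher and 0 lower. It also called 0 higher and 0 lower among all 27745 probe sets it could test, so this is no result about the 8 genes. At an unadjusted p of at most 0.05 with 2-fold it gave 3 and 0 of the 14, against 3 and 2 by limma. On one probe set each, it called 0 genes higher and 0 lower. Centring the arrays gave 3 probe sets called lower instead of 1 (TOP1MT 1560757_at and TDP2 joined TOP3B), 4 instead of 2 at least 2-fold lower in both arrays, and 2 genes called lower instead of 1; over all probe sets it gave 5839 higher and 7039 lower calls, against 6021 and 4470. A prior from the probe sets that differ called 4 probe sets lower, and 2 genes higher and 4 lower, adding TOP2A, TOP1MT, TOP2B and TDP2; over all probe sets it called 9005 higher and 7471 lower. Robust moderation called 4537 and 3377 of them. With the probe set highest in SupB15 for each gene, 0 genes were called higher, since TOP3A became -0.46 instead of 2.40. Leaving out 1 SupB15-MR array gave 3 to 4 probe sets at least 2-fold higher and 3 lower. TDP1 226044_at changed sign with centring (-0.17) and without replicate 1 (-0.0081, against 0.0726 without replicate 2); TOP1 became 1.66 as the mean or median of its probe sets instead of -0.47, and TOP2A became -0.40 as the median instead of 1.19. No filter, robust moderation and an intensity trend left the counts of called probe sets and genes among the 8 as they were. No paired analysis was possible because SupB15 has 1 array.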
